A study of Mus musculus with 10 samples.

Results

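The Hox genes were followed in the aortas of male C57BL/6 mice that were wild type or Ptgds-/-. The latter lacked lipocalin-type prostaglandin D synthase, an enzyme that makes prostaglandin D2. A gene was a member if at least 1 probe set of the Affymetrix array carried its symbol alone, and the brightest such probe set stood for it. This gave 33 of the 39 protein-coding Hox genes of the RefSeq annotation, among 18193 genes with a probe set of their own. Total RNA of the aorta was measured on 4 wild type arrays (replicates 1, 3, 4 and 5; replicate 2 holds no values and was excluded per its label) and 5 knockout arrays (replicates 1 to 5), which the labels call biological replicates. The labels give no age, say nothing of which length of the aorta was dissected, and do not describe the null allele; all mice were group-housed on chow. Values below are deposited log2 values and are listed in the order of these replicate numbers, wild type first.

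Hox genes encode homeodomain transcription factors. They lie in clusters named a to d, and genes at the same place in different clusters form a paralogue group with 1 number. In the embryo, low-numbered groups are switched on near the head and higher-numbered groups only further toward the tail, and adult vascular smooth muscle, endothelium and fibroblasts keep much of this pattern, so that the arch, the thoracic and the abdominal aorta carry different sets. The question put to the arrays was therefore whether wild type and knockout samples hold the same stretch of aorta, read in the order of the paralogue numbers.

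The preparations carried the markers of an aorta. All 10 smooth muscle markers were over the floor, a log2 value of 4 on at least 4 arrays, and their mean lay between 12.31 and 12.48 on wild type and between 12.39 and 12.55 on knockout arrays. Knockout means exceeded wild type means for 8 of these 10, the median change was 0.06, and 0 passed. At an unadjusted p under 0.05 (limma), 4 were higher and 1, Myocd, lower, beside 12.8% and 7.12% of all genes. The 4 were Myl9 (0.26), Lmod1 (0.31), Smtn (0.27) and Tagln (0.12). The groups did not overlap for 1 marker, Tagln, beside 4.59% of all genes higher without overlap. The part of smooth muscle in the Hox values was not tested. Ptgds stood at 8.68 to 10.31 on wild type and at 3.67 to 4.40 on knockout arrays, an adjusted p of 0.00059 (limma), as the labels say. Array medians ran from 5.88 to 5.97. Other tissues were unevenly present: the mean of 8 sympathetic neuron markers was 10.95 on wild type replicate 3 and 9.20 on knockout replicate 1 against 4.66 to 7.53 elsewhere, that of 7 skeletal muscle markers was 9.97 on knockout replicate 3 against 4.84 to 5.41 elsewhere, and that of 10 heart muscle markers ran from 6.36 to 8.76. In such bulk RNA, fewer cells of a type and less RNA per cell cannot be told apart.

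The Hox genes over the floor formed a block from group 2 to group 10. Of the 33 members 24 passed, and each of these was over the floor on all 9 arrays, so none passed through 1 genotype only. In group 1, Hoxb1 and Hoxd1, which act in the hindbrain, stayed between 2.07 and 2.71. From group 2 to group 6, 13 of 13 members passed (Hoxa2, Hoxb2, Hoxa3, Hoxb3, Hoxd3, Hoxa4, Hoxb4, Hoxc4, Hoxa5, Hoxb5, Hoxc5, Hoxb6 and Hoxc6), and from group 8 to group 10, 9 of 9 did (Hoxc8, Hoxd8, Hoxa9, Hoxb9, Hoxc9, Hoxd9, Hoxa10, Hoxc10 and Hoxd10). In group 7, Hoxa7 passed and Hoxb7 lay between 3.55 and 3.87; a further probe set, shared by Hoxb7 and Hoxb8, lay between 7.04 and 8.03.

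The groups that pattern the sacrum, tail, distal limb and genital tract were near background. Hoxa11, Hoxd11, Hoxd12, Hoxa13, Hoxc13 and Hoxd13 failed the floor, and their values ran from 2.46 to 4.53. Hoxb13, known from the prostate and the tail bud, passed with 4.25 to 4.98, close above the floor. Hoxa13 was over 4 on 1 array, knockout replicate 5 (4.22). Hoxa11 was the least uniform of those below it: it was over 4 on wild type replicate 4 (4.23) and on knockout replicates 3 (4.27) and 5 (4.53) and lay at 3.25 on knockout replicate 2. Hoxb8 and Hoxd4 only share probe sets with a neighbour, and Hox genes without a probe set of their own were not analysed here.

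**Figure D1:**
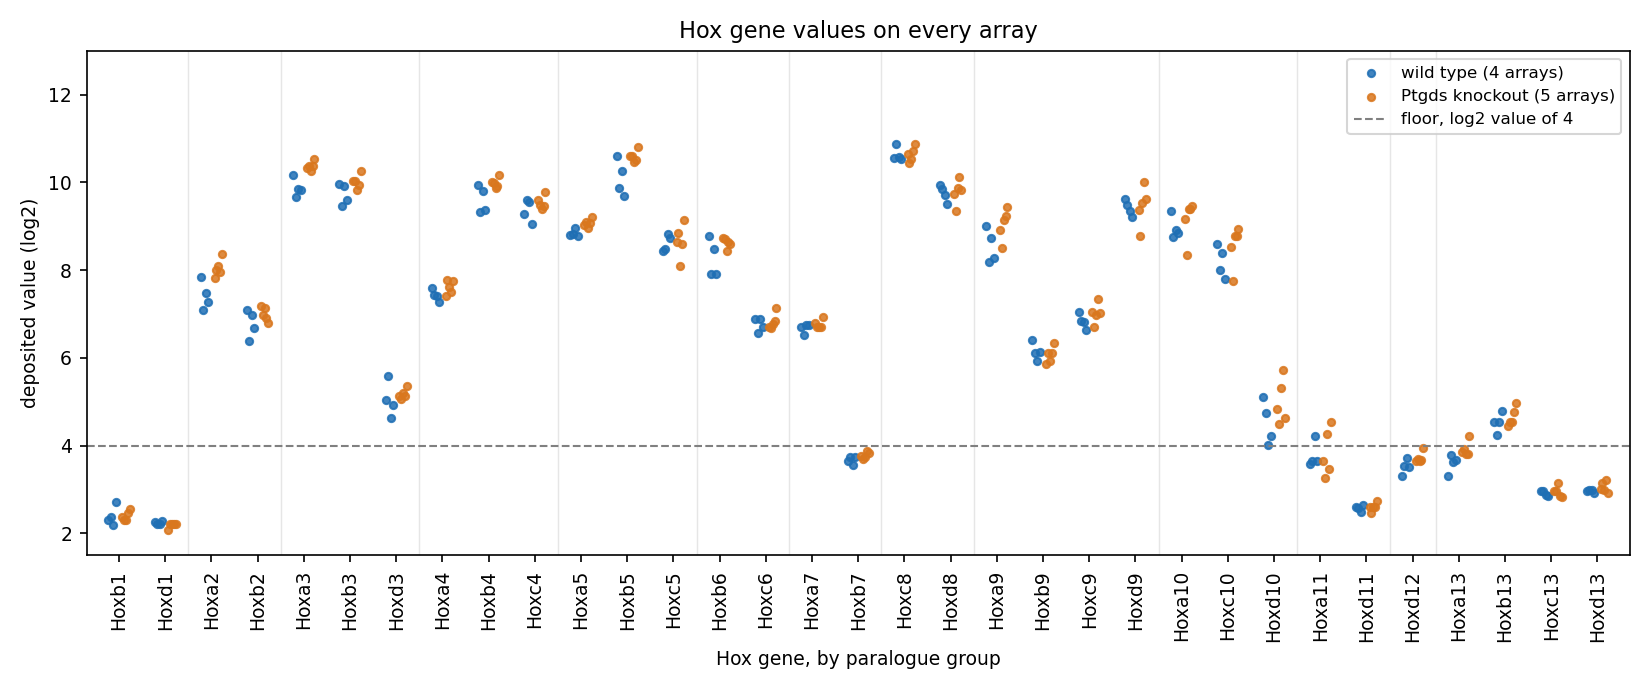
Deposited log2 values (vertical axis) of the 33 Hox genes in the order of their paralogue groups (horizontal axis), 1 point per array, 4 wild type in blue and 5 knockout in orange; the dashed line is the floor of 4. Groups 2 to 10 lie over the floor except Hoxb7, and groups 1, 11, 12 and 13 under it except Hoxb13 at 4.25 to 4.98, 3 arrays of Hoxa11 and 1 of Hoxa13. Heights of different genes are not comparable, since each probe set has its own response.

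No Hox gene passed the comparison of genotypes. Of 24 tested Hox genes 0 had an adjusted p under 0.05 (limma), where 0.0559% of all 14321 tested genes were called, 0.0279% higher and 0.0279% lower. Without adjustment, 5 Hox genes were higher (Hoxa2, Hoxa3, Hoxa5, Hoxb4 and Hoxb5) in the knockout with p under 0.05 and 0 lower, beside 12.8% and 7.12% of all genes. The changes pointed upward in 22 of the 24 genes, beside 56.7% of all genes, and their median was 0.19 on the log2 scale against 0.03 over all tested genes. The groups did not overlap for 2 Hox genes, Hoxa3 and Hoxa5, both higher, beside 4.59% of all genes higher and 2.16% lower.

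Promoters of 4 members are shown because these genes carry the 2 patterns described next. Hoxa2 and Hoxa3 had the largest differences between genotypes relative to their spread among genes of groups 1 to 3, and Hoxa10 and Hoxd9 had values that set 1 knockout array apart. Each run holds 250 bases before and 50 after the annotated start, from RefSeq with build GRCm38.p6, in lower case with motif matches in capitals; Hoxa10 has 2 annotated starts, and the one whose window holds a match is shown.
Hoxa2, GRCm38.p6 chr6:52164782-52165081, minus strand: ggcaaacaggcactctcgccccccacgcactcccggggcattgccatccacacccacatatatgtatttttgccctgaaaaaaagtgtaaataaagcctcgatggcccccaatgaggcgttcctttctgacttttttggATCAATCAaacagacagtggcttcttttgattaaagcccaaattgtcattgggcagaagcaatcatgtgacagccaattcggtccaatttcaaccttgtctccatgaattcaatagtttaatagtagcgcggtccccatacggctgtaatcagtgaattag
Hoxa3, GRCm38.p6 chr6:52213018-52213317, minus strand: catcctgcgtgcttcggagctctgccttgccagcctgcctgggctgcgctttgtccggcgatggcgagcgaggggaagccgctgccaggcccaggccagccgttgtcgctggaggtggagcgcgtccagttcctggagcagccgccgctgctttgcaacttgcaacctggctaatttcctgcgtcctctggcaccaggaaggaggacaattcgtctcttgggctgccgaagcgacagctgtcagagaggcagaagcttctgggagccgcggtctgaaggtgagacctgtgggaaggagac
Hoxa10, GRCm38.p6 chr6:52234890-52235189, minus strand: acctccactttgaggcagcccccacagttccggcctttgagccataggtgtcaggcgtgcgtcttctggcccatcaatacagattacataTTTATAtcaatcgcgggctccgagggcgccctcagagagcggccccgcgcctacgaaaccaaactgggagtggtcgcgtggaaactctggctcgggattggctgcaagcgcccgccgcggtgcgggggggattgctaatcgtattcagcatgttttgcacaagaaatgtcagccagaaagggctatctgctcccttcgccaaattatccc
Hoxd9, GRCm38.p6 chr2:74697513-74697812, plus strand: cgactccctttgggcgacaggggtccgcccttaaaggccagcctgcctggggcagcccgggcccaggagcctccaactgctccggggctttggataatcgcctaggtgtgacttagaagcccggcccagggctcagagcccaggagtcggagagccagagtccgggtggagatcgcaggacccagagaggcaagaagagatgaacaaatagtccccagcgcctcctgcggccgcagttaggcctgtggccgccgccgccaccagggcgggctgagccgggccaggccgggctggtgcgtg
In Hoxa2 the capitals mark a match to TGATNNAT, the joint site of Hox proteins and their Pbx cofactors, read on the opposite strand from position -111 relative to the start. In Hoxa10 they mark a match to the TATA box letters TATAAA, also on the opposite strand, from position -160. Both strands of 13 promoters of 12 tested Hox genes were searched for these motifs, for the Cdx letters CAATAAA and CCATAAA, and for retinoic acid response elements written as GGTCANNNNNGGTCA and GGTCANNGGTCA. The Hox-Pbx letters stood in 1 of the 13 and in 8.85% of all 32851 promoters, the TATA letters in 1 and in 13.6%, the Cdx letters in 0 and in 7.2%, and the 2 retinoic acid elements in 0 and in 0.0761% and 0.222%. No match to 1 motif overlapped another in the promoters shown. A match is a run of letters and not a measured site.

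Groups 1 to 3 pattern the hindbrain and the pharyngeal arches that also give rise to the aortic arch. Their 5 tested genes, all from groups 2 and 3, were higher in the knockout on average, by 0.35. With the 2 group 1 genes under the floor included, the shift was 0.24. Whether this differs from the other sets was not tested. Hoxa2, the selector gene of the second pharyngeal arch, read 7.83, 7.10, 7.48 and 7.27 in wild type and 7.81, 8.005, 8.09, 7.96 and 8.37 in knockout aortas. The groups met only at wild type replicate 1, which lay 0.02 above knockout replicate 1. The means were 7.42 ± 0.32 (SD, n = 4) and 8.05 ± 0.21 (SD, n = 5), a change of 0.63 (SE 0.16, 1.54-fold) with an adjusted p of 0.131 (limma).

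Hoxa3, needed for the carotid body, thymus and parathyroid, read 10.17, 9.68, 9.84 and 9.82 on the wild type arrays and 10.33, 10.37, 10.26, 10.38 and 10.53 on the knockout arrays. All 5 knockout arrays lay above all 4 wild type arrays. The change was 0.50 (SE 0.10, 1.41-fold), from 9.88 ± 0.21 (SD, n = 4) to 10.37 ± 0.10 (SD, n = 5), with an adjusted p of 0.105 (limma), the smallest of any Hox gene. This probe set is of a type that can detect several transcripts. Of the 3 other probe sets of Hoxa3, 1 gave a difference of 0.44 and likewise kept the groups apart, and the others gave 0.32 and 0.01 with overlapping groups.

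The other genes of these groups overlapped between genotypes. Hoxb3 read 9.96, 9.46, 9.92 and 9.61 in wild type and 10.04, 10.04, 9.82, 9.93 and 10.25 in knockout aortas, a change of 0.28 (SE 0.13, adjusted p 0.256, limma). Its second probe set gave a difference of 0.52 (SE 0.12, adjusted p 0.112 in a limma fit of every tested probe set), and there all knockout arrays (6.60 to 6.94) lay above all wild type arrays (5.99 to 6.42). Hoxb2 differed by 0.22 (SE 0.15). Hoxd3 read 5.04, 5.58, 4.63 and 4.92 in wild type and 5.14, 5.06, 5.21, 5.14 and 5.37 in knockout aortas, a change of 0.14 (SE 0.17), and its wild type values spanned more than its knockout values; leaving out wild type replicate 3 gave 0.32, and leaving out wild type replicate 4 gave 0.0016. The mean of the 5 genes, each centred on its own mean over the 9 arrays, was -0.33, -0.31, -0.20 and 0.05 on wild type replicates 3, 5, 4 and 1, and 0.10 to 0.30 on the knockout arrays. The knockout mean lay 0.35 above the wild type mean, with SDs of 0.17 in wild type and 0.08 in knockout; wild type replicate 1 lay closest to the knockout arrays.

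In groups 4 to 8, which pattern the neck and thorax, the 3 largest differences were those of the b cluster. Hoxb5, active in vagal neural crest and in mesoderm of the foregut, read 10.61, 9.88, 10.26 and 9.68 in wild type and 10.60, 10.61, 10.47, 10.52 and 10.80 in the knockout. Wild type replicate 1 lay within the knockout range and the other 3 wild type arrays below it. The change was 0.49 (SE 0.17, 1.41-fold, adjusted p 0.181, limma). Its neighbour Hoxb4, known to expand blood stem cells when forced, read 9.94, 9.32, 9.79 and 9.38 in wild type and 10.00, 9.99, 9.88, 9.91 and 10.18 in the knockout, a change of 0.38 (SE 0.14, adjusted p 0.180, limma). Hoxb6 differed by 0.35 (SE 0.18, adjusted p 0.307, limma). For all 3 of these genes wild type replicate 1 was the highest wild type array, and wild type replicates 3 and 5 were the lowest of all 9 arrays.

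On the a cluster, Hoxa5, a regulator of lung and cervical skeleton, read 8.79, 8.81, 8.96 and 8.77 in wild type and 9.02, 9.10, 8.97, 9.07 and 9.22 in the knockout. The groups did not overlap, but only just, between wild type replicate 4 and knockout replicate 3. The change was 0.24 (SE 0.07, 1.18-fold, adjusted p 0.144, limma), on a probe set of a type that can bind other transcripts; the other probe set differed by 0.16 (SE 0.09) with overlapping groups. Hoxa4 read 7.58, 7.44, 7.40 and 7.26 in wild type and 7.42, 7.76, 7.62, 7.49 and 7.76 in the knockout, a change of 0.19 (SE 0.10, adjusted p 0.304, limma), where its other probe set differed by -0.03. Hoxa7 differed by 0.09 (SE 0.07).

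By the brightest probe sets, the differences of the c and d clusters in these groups ran from near 0 to that of Hoxc4, 0.17. Hoxc8, which sets rib identity in the lower thorax, read 10.56, 10.88, 10.58 and 10.54 in wild type and 10.65, 10.44, 10.53, 10.71 and 10.88 in the knockout. The groups overlapped and both means were 10.64, with an SE of 0.11 on their difference. Hoxc5 read 8.44, 8.49, 8.83 and 8.74 in wild type and 8.64, 8.84, 8.09, 8.59 and 9.15 in the knockout, a change of 0.04 (SE 0.19), and the knockout arrays alone covered the wild type range. Hoxc4, Hoxc6 and Hoxd8 differed by 0.17, 0.06 and 0.03, with SEs of 0.13, 0.11 and 0.15. The other probe set of Hoxd8 differed by -0.17 (SE 0.17). Of the 9 Hox genes with several tested probe sets, 6 had changes of the same sign on all of them. Hoxa4, Hoxa9 and Hoxd8 did not. The centred mean of the 11 genes was 0.19 higher in the knockout, with SDs of 0.14 and 0.12 and overlapping groups.

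**Figure D2:**
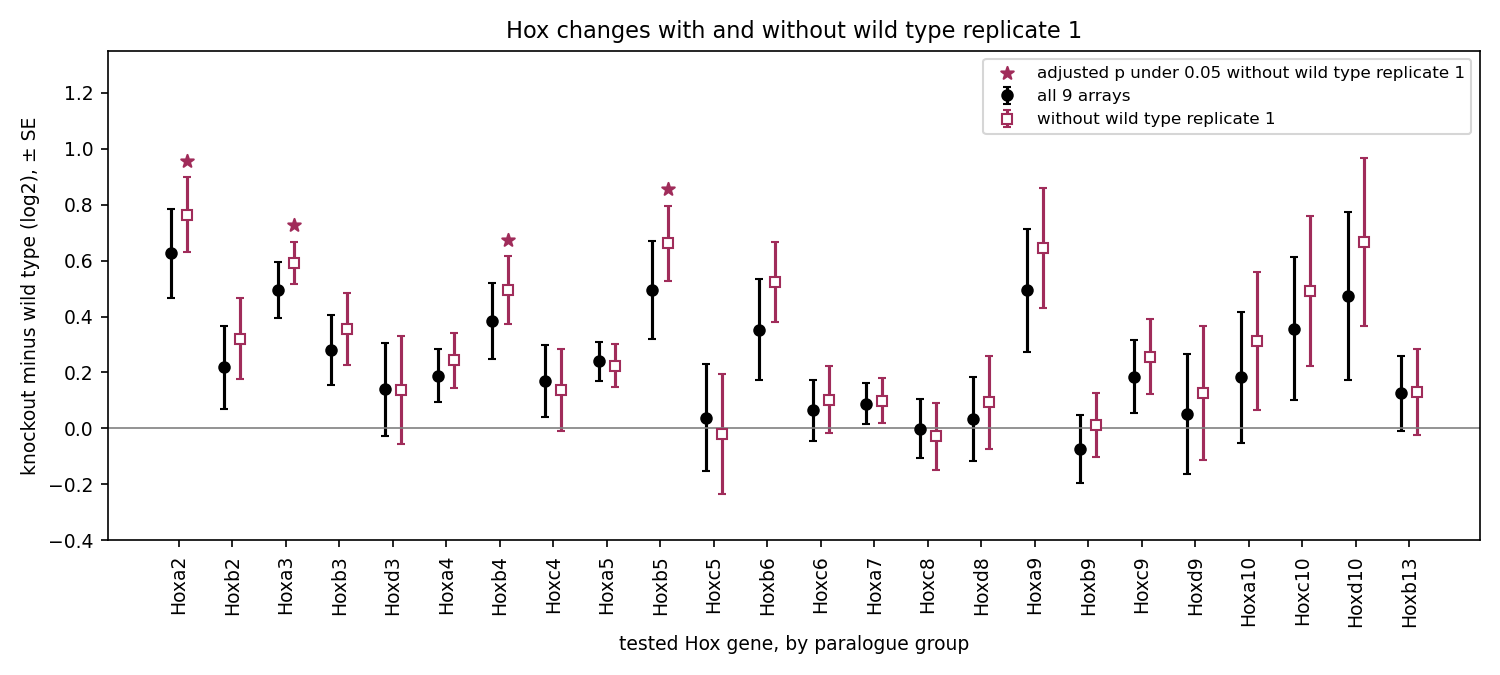
Knockout minus wild type change (log2, vertical axis) of the 24 tested Hox genes in paralogue order (horizontal axis), with the SE as bars, from all 9 arrays (filled circles) and without wild type replicate 1 (open squares); stars mark an adjusted p under 0.05 in the second fit. The largest change with all arrays is that of Hoxa2 at 0.63, and the stars stand over Hoxa2, Hoxa3, Hoxb4 and Hoxb5.

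The calls depended on wild type replicate 1. Without it, 4 of the 24 Hox genes were called, all higher in the knockout (Hoxa2, Hoxa3, Hoxb4 and Hoxb5), where 7.5% of all tested genes were called, 5.36% higher and 2.14% lower. Hoxa2 then changed by 0.76 (SE 0.13, 1.70-fold, adjusted p 0.021), Hoxa3 by 0.59 (SE 0.08, 1.51-fold, adjusted p 0.011), Hoxb5 by 0.66 (SE 0.13, 1.58-fold, adjusted p 0.030) and Hoxb4 by 0.50 (SE 0.12, 1.41-fold, adjusted p 0.047), all in limma. Of the called genes 2 lie on the a cluster and 2 on the b cluster; 0 of 6 genes of the c cluster and 0 of 4 of the d cluster were called. Whether the clusters differ was not tested. The groups were then apart for 5 Hox genes, all higher (Hoxa5 beside these 4), where 13.7% of all genes were apart and higher and 6.03% apart and lower. Wild type replicate 1 was the highest wild type array for 16 of the 24 tested Hox genes, beside 34.2% of all tested genes. Without any other 1 array, 0 Hox genes were called.

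Groups 9 and 10 mark the lower thorax and the lumbar body, and most of their genes varied more between aortas of the same genotype than those of lower groups. The within-group SD had a median of 0.36 in the 8 tested genes of groups 9 to 13, 0.24 in groups 1 to 3 and 0.21 in groups 4 to 8, where the median over all tested genes was 0.15. Hoxd10, a lumbar gene, had the largest, 0.50, above that of 94.9% of tested genes, at values not far over the floor. Hoxc10, Hoxa10, Hoxa9 and Hoxd9 followed with 0.43, 0.39, 0.37 and 0.36. Hoxb9 and Hoxc9 varied less, with 0.19 and 0.21, under Hoxc5 of groups 4 to 8 at 0.32.

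Knockout replicate 2 stood apart in this set. Hoxa10, which with its paralogues suppresses ribs in the lumbar region, read 9.35, 8.76, 8.91 and 8.85 in wild type and 9.16, 8.34, 9.40, 9.38 and 9.46 in knockout aortas. Knockout replicate 2 was the lowest of all 9 arrays, and the other 4 knockout arrays lay above 3 of the 4 wild type arrays. The change was 0.18 (SE 0.24, adjusted p 0.691, limma); it was 0.38 without knockout replicate 2, 0.31 without wild type replicate 1 and 0.10 without knockout replicate 5.

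Hoxd9 read 9.63, 9.48, 9.34 and 9.20 in wild type and 9.38, 8.78, 9.54, 10.00 and 9.62 in the knockout, a change of 0.05 (SE 0.22) that was 0.22 without knockout replicate 2. Hoxc10, a lumbar gene singled out after its values were seen, read 8.60, 8.004, 8.38 and 7.80 in wild type and 8.53, 7.75, 8.77, 8.79 and 8.93 in the knockout, a change of 0.36 (SE 0.25). Knockout replicate 2 was again the lowest of the 9 arrays for both genes.

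Hoxa9, a gene of the thorax that also acts in blood stem cells, read 9.01, 8.19, 8.73 and 8.29 in wild type and 8.91, 8.51, 9.14, 9.23 and 9.44 in the knockout, a change of 0.49 (SE 0.22, 1.41-fold, adjusted p 0.254, limma); its other probe set differed by -0.01. Hoxd10 read 5.10, 4.75, 4.02 and 4.22 in wild type and 4.84, 4.49, 5.31, 5.72 and 4.62 in the knockout, a change of 0.47 (SE 0.30) that was 0.31 without wild type replicate 4 and 0.29 without knockout replicate 4. The groups overlapped for both. Hoxc9 differed by 0.19 (SE 0.13), Hoxb9 by -0.07 (SE 0.12) and Hoxb13 by 0.13 (SE 0.13).

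**Figure D3:**
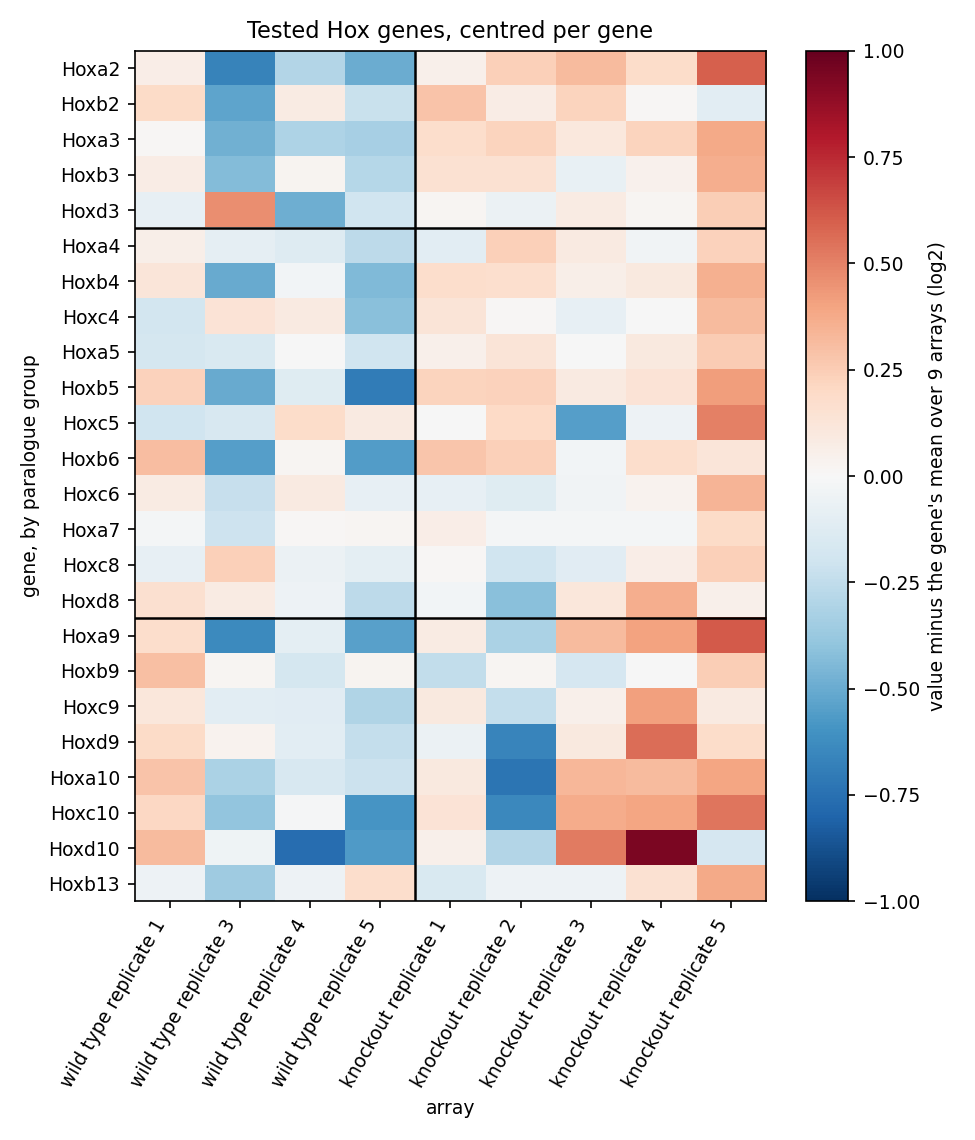
The 24 tested Hox genes (rows, by paralogue group) on the 9 arrays (columns, wild type left of the line), coloured by the value minus the gene's mean over all arrays (log2); horizontal lines divide groups 1 to 3, 4 to 8 and 9 to 13. Wild type replicates 3 and 5 are blue for most genes, and knockout replicate 2 is blue for Hoxd8, Hoxa9, Hoxc9, Hoxd9 and the group 10 genes while near or above 0 for most genes of groups 2 to 5.

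Counted over genes, knockout replicate 2 was the lowest knockout array for 6 of 7 genes of groups 9 and 10 for 4 of 11 of groups 4 to 8 and for 1 of 5 of groups 1 to 3, beside 18.6% of all tested genes. By cluster, it was the lowest knockout array for all 4 tested genes of the d cluster. Wild type replicate 1 was the highest wild type array for 7 of 7 genes of groups 9 and 10, and knockout replicate 5 was the highest knockout array for 17 of the 24 tested Hox genes, beside 31.2% of all tested genes. The centred mean of the 8 genes of groups 9 to 13 was 0.19, -0.22, -0.18 and -0.28 on the wild type arrays, and was 0.18, 0.40 and 0.28 on knockout replicates 3, 4 and 5, near 0 on knockout replicate 1 and -0.36 on knockout replicate 2. The knockout mean was 0.22 higher, with SDs of 0.21 and 0.30; it was 0.34 higher without knockout replicate 2, and the groups overlapped in both cases.

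The balance between the caudal and the middle groups did not separate the genotypes. The mean of groups 9 to 13 minus that of groups 4 to 8 was 0.16, -0.05, -0.18 and -0.02 in wild type and -0.06, -0.41, 0.23, 0.32 and 0.01 in knockout aortas. The means were -0.02 ± 0.14 (SD, n = 4) and 0.02 ± 0.28 (SD, n = 5), a difference of 0.04, and the knockout arrays spanned both ends. The difference turned negative without wild type replicate 4 (-0.02), knockout replicate 3 (-0.015) or knockout replicate 4 (-0.04), and was 0.10 without wild type replicate 1 and 0.14 without knockout replicate 2. No p is given for these means, since their members were chosen with results of these arrays known.

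**Figure D4:**
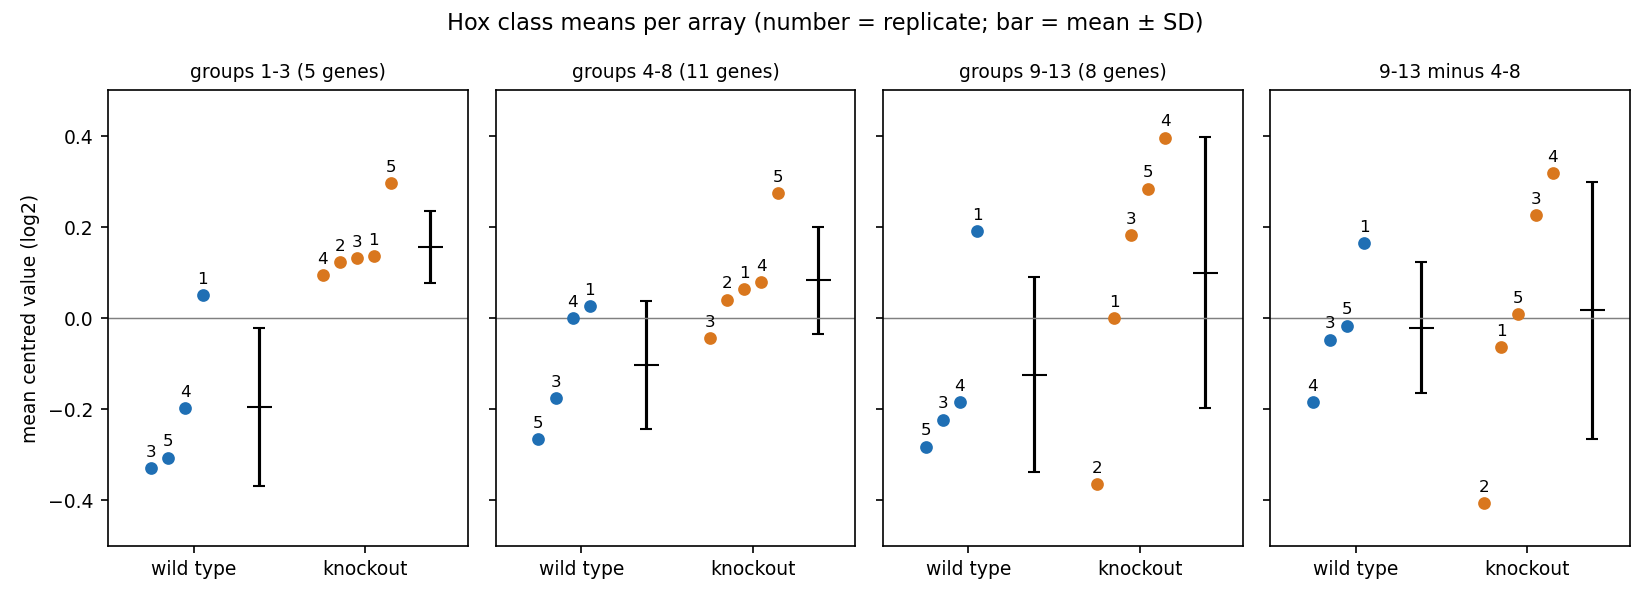
Mean centred value (log2, vertical axis) of the tested Hox genes of groups 1 to 3, 4 to 8 and 9 to 13 and the last minus the second, 1 point per array labelled with its replicate number, with the mean ± SD of each genotype as a bar. In groups 1 to 3 the knockout arrays (0.10 to 0.30) lie above wild type replicate 1 at 0.05, while in groups 9 to 13 knockout replicate 2 at -0.36 lies below every other array.

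Heart muscle markers were mostly low on the arrays where the caudal Hox genes were high. The 10 markers, all tested, had means of 6.36, 6.40, 6.48 and 6.59 on wild type replicate 1 and knockout replicates 1, 3 and 5, where the centred mean of the 7 genes of groups 9 and 10 was 0.23, 0.02, 0.22 and 0.27. The marker means were 7.13, 7.40, 7.87 and 8.76 on wild type replicates 5 and 3, knockout replicate 2 and wild type replicate 4, where the Hox mean was -0.35, -0.20, -0.41 and -0.20. Knockout replicate 4 was the exception, with 7.52 and 0.43. Myh6, the atrial and adult mouse ventricular myosin, ran from 4.03 on wild type replicate 1 to 9.05 on knockout replicate 2 and 10.32 on wild type replicate 4, and Myl7, an atrial light chain, from 3.78 on knockout replicate 3 to 8.92 on wild type replicate 4. Not all of the 10 ran this way. Actc1 read 10.08 on wild type replicate 1 and 9.25 on knockout replicate 2, and Ryr2 was highest on knockout replicate 5 (10.84). Some of the 10, such as Actc1 and Tnnt2, can also be made by vascular muscle. The part of heart tissue in the Hox values was not tested.

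**Figure D5:**
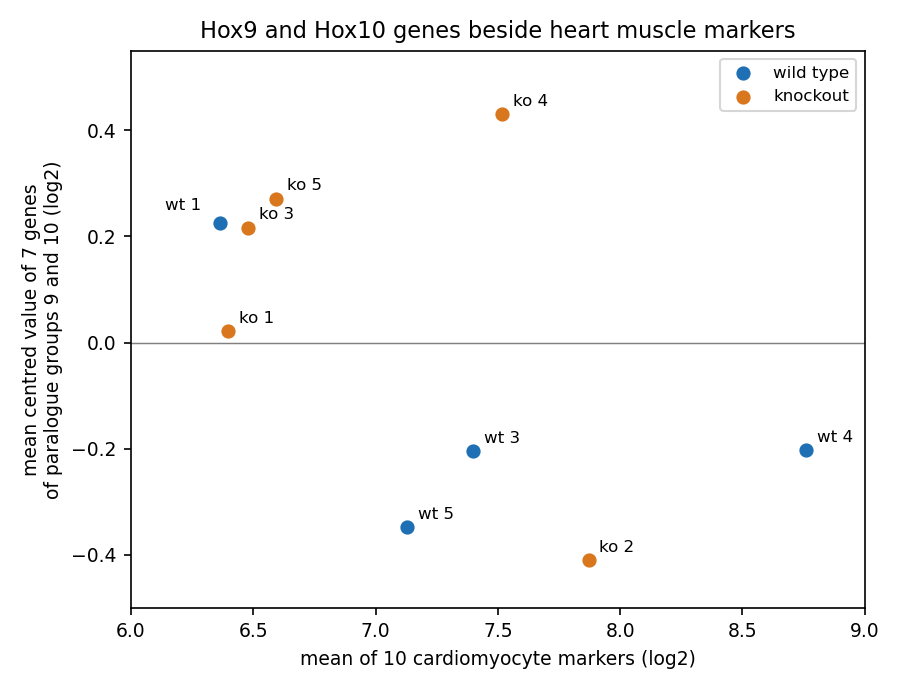
Mean centred value of the 7 tested genes of groups 9 and 10 (log2, vertical axis) against the mean of 10 cardiomyocyte markers (log2, horizontal axis), 1 labelled point per array. The 4 arrays with marker means of 6.36 to 6.59 lie at 0.02 to 0.27, and the 5 with 7.13 to 8.76 lie between -0.41 and -0.20 except knockout replicate 4 at 0.43.

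Fat and nerve also differed between these arrays. The mean of 8 adipocyte markers was lowest on knockout replicates 5 (10.06) and 1 (10.49) and wild type replicate 1 (10.68). It lay between 10.80 and 11.18 on the others. Wild type replicate 1 was also the wild type array closest to the knockout in groups 1 to 3. Knockout replicates 3 and 4 had adipocyte means of 10.99 and 10.95. Their centred means of groups 1 to 3 were 0.13 and 0.10, beside 0.14 on knockout replicate 1. All 8 adipocyte markers were lower in knockout aortas, 0 passed, and their median change was -0.29. Of 9 tested brown adipocyte markers 8 were lower and 1 higher, 0 passed, and the median change was -0.18. With the adipocyte markers as a covariate the median Hox change was 0.13 and 0 Hox genes were called. Hoxb3 then differed by 0.14, Hoxb4 by 0.25, Hoxb5 by 0.31, Hoxa9 by 0.32 and Hoxa10 by 0.05. Without the covariate these were 0.28, 0.38, 0.49, 0.49 and 0.18. Hoxa2, Hoxa3 and Hoxa5 moved less, to 0.48, 0.40 and 0.19 from 0.63, 0.50 and 0.24. Hoxd10 rose from 0.47 to 0.58 with the covariate. Wild type replicate 3, with the most sympathetic neuron RNA, was the lowest wild type array for 10 of the 24 tested Hox genes, beside 35.8% of all tested genes; wild type replicate 5, with the least, was the lowest for another 10, beside 20.1%. Without wild type replicate 3 and knockout replicate 1, the arrays richest in neuron markers, the median Hox change was 0.19. Of 10 endothelial markers 9 were lower and 1 higher in the knockout, 0 passed, and the median change was -0.28. At an unadjusted p under 0.05 (limma), 5 were lower and 0 higher, beside 7.12% and 12.8% of all genes. The groups did not overlap for 1 of them, Esam (-0.24), beside 2.16% of all genes lower without overlap. The array means of the 10 were 9.03 to 9.51 in wild type and 8.85 to 9.16 in the knockout. Of 10 adventitial fibroblast markers 4 were higher and 6 lower, 0 passed, and the median change was -0.04. The part of any of these tissues in the Hox values was not tested. Markers of kidney and oesophagus epithelium stayed near the floor, with 2 of 9 and 6 of 9 over it and means of 5.01 to 5.58 and 4.63 to 4.93. Of 10 adrenal markers 6 were over it, with means of 5.59 to 6.19, while the cortex markers Cyp11b1, Cyp11b2, Hsd3b1 and Nr5a1 were not. Of the 6 adrenal markers over the floor 4 were higher and 2 lower in the knockout, 0 passed, and the median change was 0.07. Their mean was 5.87 in wild type and 5.89 in the knockout. Pnmt, the adrenaline-forming enzyme of the adrenal medulla, read 6.85, 6.14, 6.24 and 5.66 in wild type and 6.86, 7.94, 7.65, 7.01 and 7.20 in knockout aortas. Its difference was 1.11 (SE 0.28, adjusted p 0.131, limma). It was the 1 marker of the 6 without overlap, beside 4.59% of all genes higher without overlap. Chga, a marker of chromaffin cells and sympathetic neurons, ran from 5.35 to 9.94, highest on wild type replicate 3. The part of adrenal tissue in the Hox values was not tested either.

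Cofactors of Hox proteins were read from the same fit. The 9 tested genes were members of the TALE homeodomain family, which bind DNA beside Hox proteins, and Pbxip1, a related protein outside that family. Of the 9, 8 were higher and 1 lower, beside 56.7% of all genes higher. The median change was 0.15 against 0.03 over all tested genes, and 0 passed. Meis1, the cofactor of many Hox proteins, read 7.65, 7.09, 7.41 and 7.37 in wild type and 7.65, 7.79, 7.73, 7.73 and 8.16 in the knockout, a change of 0.43 (SE 0.13, adjusted p 0.150, limma). The groups did not overlap, by a margin that is lost at 2 decimals. Groups were apart for 2 of the 9, Meis1 and Pbx2, beside 4.59% of all genes higher without overlap. Pbx2, a cofactor that pairs with Hox proteins of low and middle groups, read 9.86, 9.82, 9.79 and 9.70 in wild type and 9.98, 9.93, 9.99, 9.96 and 9.90 in the knockout, a change of 0.16 (SE 0.05, adjusted p 0.159, limma), and its groups did not overlap either.

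Known regulators of the clusters were read likewise. Of 33 tested genes of retinoic acid handling, Cdx, Polycomb and trithorax, 20 were higher and 13 lower, beside 56.7% of all genes higher. The median change was 0.02 against 0.03 over all tested genes, and 0 passed. Cdx2, a caudal regulator of Hox genes, lay at the floor, with 3.77, 3.75, 3.69 and 4.14 in wild type and 4.05 to 4.42 in knockout aortas. It passed the floor through the knockout arrays, so no test of it is given, though it counts among the 33 and the 20 higher. Ctcf, which divides Hox clusters into domains, differed by 0.16 (SE 0.06, adjusted p 0.200, limma). Cdx1, Cdx4, Cyp26a1, Crabp1 and Gdf11 were under the floor.

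Of 5 listed transcripts from the clusters with a probe set, 2 were over the floor, and 0 passed. Hoxb5os, annotated opposite Hoxb5, read 8.75, 7.46, 8.14 and 7.97 in wild type and 9.02, 8.64, 8.56, 8.58 and 8.95 in the knockout, a change of 0.67 (SE 0.23, adjusted p 0.177, limma), and wild type replicate 1 lay within the knockout range as it did for Hoxb5. Hoxd3os1 differed by 0.20 (SE 0.24, adjusted p 0.661, limma), and Hoxa11os, Evx1 and Evx2 were under the floor. Of 32 tested transcription factors of other families that mark body regions, 26 were higher and 6 lower, beside 56.7% of all genes higher. The median change was 0.14 against 0.03 over all tested genes, and 0 passed. Of the 32, 3 were higher and 0 lower at an unadjusted p under 0.05 (limma), beside 12.8% and 7.12% of all genes. The 26 include Wt1, which passed the floor mostly through knockout arrays. It read 3.69, 3.51, 3.99 and 4.85 in wild type and 4.74, 4.97, 3.66, 4.31 and 4.94 in the knockout. Osr1, a factor of lateral mesoderm, differed by 0.30 (SE 0.11, adjusted p 0.199, limma), and Foxf1, a factor of visceral mesoderm, by 0.27 (SE 0.10, adjusted p 0.207, limma). The Hoxd cluster lies on chromosome 2, as Ptgds does, and 0 of its 4 tested genes were called; the a, b and c clusters lie on chromosomes 6, 11 and 15.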

How the data were processed

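Total RNA of the aorta was measured on 1-colour Affymetrix arrays. The deposited values are log2 intensities per probe set, and GCRMA is the tool that the submitters' processing notes name; the log2 scale was read from the values (1.75 to 14.8), and the version is not given in the sources used here. No value was scaled again. A probe set was tested if over a log2 value of 4 on at least 4 of the 9 arrays, and a gene was represented by its brightest probe set, which left 14321 genes. Knockout minus wild type was fitted with limma 3.58.1 in R 4.3.3 (lmFit, eBayes, no covariate), two-sided, with p-values adjusted by Benjamini-Hochberg over all tested genes. The fit was tested on simulated data with independent noise for each gene and array. Such data cannot show how the fit handles deviations that many genes of an array share.

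All 33 Hox symbols matched RefSeq by gene identifier. Named are Hox genes past the threshold, the 8 with the smallest p, and in each of groups 1 to 3, 4 to 8 and 9 to 13 the 3 with the highest mean and the 1 with the largest SD; other Hox genes are named with shorter values (Hoxc10, Hoxb6 and Hoxb2 among them), and of each supporting list the 2 with the smallest p. Members and lists were chosen with earlier results of these data known. The number of arrays limits the precision. Replicate numbers name the arrays and do not pair them: deviations of same-numbered arrays correlated at -0.36 to 0.21 over genes. Alternatives were other normalizations, floors, probe set rules and limma options, an adipocyte covariate, a replicate block and leaving out arrays.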

Additional observations from a re-analysis of the deposited data

Results flagged for a closer look

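Among 48 sets of 4 or 5 values, 3 held a value far from the others of its genotype, where chance gives about 1 in 20. Hoxa10 on knockout replicate 2 was 8.34, against 9.16 to 9.46 on the other knockout arrays. Hoxc8 on wild type replicate 3, the array with the most sympathetic neuron RNA, was 10.88, against 10.54 to 10.58 on the other wild type arrays. The centred mean of the genes of groups 1 to 3 was 0.30 on knockout replicate 5, the array with the least adipocyte RNA, against 0.10 to 0.14 on the other knockout arrays.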

How the results depend on the processing

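The count of 24 Hox genes over the floor was 28 with a floor of 3, 22 with a floor of 5 and 21 with a floor of 6. The median Hox change stayed above 0 in every alternative run, from 0.13 to 0.31. The shifts of groups 1 to 3, 4 to 8 and 9 to 13 stayed positive under the other normalizations, floors and probe set rule and with arrays left out, and were not computed with array weights, the trend and robust options, the replicate block or the adipocyte covariate. Without wild type replicate 1 and knockout replicate 2 the shift of groups 9 to 13 (0.45) was no smaller than that of groups 1 to 3 (0.44). The number of called Hox genes was 0 except with array weights (1, Hoxa3 at 0.48, adjusted p 0.048), without wild type replicate 1 (4, with Hoxa3 at 0.59, Hoxa2 at 0.76, Hoxb4 at 0.50 and Hoxb5 at 0.66) and, in a choice made after seeing the data, without both wild type replicate 1 and knockout replicate 2 (2, Hoxa3 at 0.59 with an adjusted p of 0.031 and Hoxa10 at 0.51 with 0.042). With 1 array left out the count over Hox genes ran from 0 to 4. The adjusted p of 1 gene depends on how many others change: over all genes the calls numbered 8, and with 1 array left out from 2 to 1071, 313 without both arrays, 19 with a floor of 6, 33 with trend and robust options, 73 with array weights, 2 with the adipocyte covariate, 3 without the 2 arrays richest in neuron RNA, and 86 at an adjusted p under 0.1. The replicate block called 0 genes of 14321 and 0 Hox genes, with a median Hox change of 0.23; same-numbered arrays did not deviate together.

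Changes near 0 had no settled sign. Hoxc8 was 0.015 after quantile normalization, 0.0050 with equal medians, 0.050 with the replicate block, 0.078 without the 2 neuron-rich arrays, 0.02 without wild type replicate 1 and knockout replicate 2, and between -0.060 and 0.080 with 1 array left out. Hoxc5 was -0.11 with array weights, -0.0058 with the replicate block, -0.13 with the adipocyte covariate, -2.2e-05 without the neuron-rich arrays, -0.07 without both arrays and between -0.082 and 0.18 with 1 left out. Leaving out wild type replicate 5 gave -0.018 for Hoxd9, leaving out knockout replicate 4 gave -0.082, and leaving out both named arrays gave 0.30. The balance of caudal over middle groups was 0.21 without both. The cause of these shifts was not tested.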
